A study of Mus musculus with 8 samples.

Results

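Bone morphogenetic proteins (BMPs) and growth differentiation factors (GDFs) were followed in mouse knee cartilage through 10 genes, out of 50462 listed in the table. They were picked by symbol, with earlier results of these data known. They are 6 ligands (Bmp2, Bmp3, Bmp4, Bmp6, Bmp7 and Gdf5), 3 secreted antagonists (Grem1, Chrd and Nog) and 1 type I receptor (Acvr1). All 10 were found and all 10 were tested.

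The libraries are bulk RNA-seq of medial knee cartilage caps from male wild-type C57Bl/6J mice, with 1 library per mouse and 4 mice in each group. The naive group had no surgery and was taken at day 0, when the mice were 11 weeks old. The DMM group had the ligament that anchors the medial meniscus to the tibia cut in the left knee at that age and was taken 42 days later, at 17 weeks. The operation is known as destabilisation of the medial meniscus and models osteoarthritis that follows joint injury. There was no sham-operated group here, so the operation and the older age of the DMM mice cannot be told apart. Every difference given below is DMM over naive.

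BMPs and GDFs are dimeric ligands of the TGFβ superfamily that were first known for inducing ectopic cartilage and bone. A ligand brings type I and type II serine/threonine kinase receptors together, the type I receptor phosphorylates Smad1, Smad5 or Smad9, and these enter the nucleus with Smad4 to switch on targets such as the Id genes. Noggin, chordin and gremlin are secreted proteins that bind ligands and keep them from their receptors, so the output of the pathway depends on the balance between ligand and antagonist. In the growing skeleton the pathway drives chondrocyte differentiation and hypertrophy, and Gdf5 marks the cells that form joints.

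The labels call the tissue cartilage and the cells chondrocytes, and all 8 chondrocyte markers, including Col2a1 and Acan, were detected. Markers of bone and of bone marrow were detected as well. The summed level of 8 osteoblast and osteocyte markers was 8931 to 13020 CPM (counts scaled to the library total) in the naive libraries and 25268 to 31403 in the DMM libraries. That of 8 neutrophil markers was 8278 to 11557 in naive and 3871 to 8203 in DMM. The sums of both lists did not overlap between the groups, and their part in the changes of the BMP genes was not tested. In the naive libraries the chondrocyte markers had a mean sum of 2704.5 CPM. The mean was 10522.9 for the bone, 10259.0 for the neutrophil and 14621.8 for the erythroid markers. Sums of different lists do not measure cell numbers, and the most abundant gene weighs most in each. Of the bone markers, Col1a1 had a naive mean of 137560.5 normalised counts, beside 8952.9 for Ibsp, the next highest. Of the chondrocyte markers, Col2a1 had 23979.3, beside 6961.6 for Acan. Below, cartilage means the caps as dissected, with the RNA of bone and marrow included. Total estimated counts were 12479443 to 16548002 per library.

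Promoter sequence was available for 5 of the 10 genes in the RefSeq table used, and is shown for the 3 whose window held no annotated exon, so that the start of the only member that fell, Grem1, can be read beside that of another antagonist and of a ligand. Each line is the 250 bases before the RefSeq start on GRCm38.p6, 5′ to 3′ on the strand of the gene. The windows are chr2:113758649-113758898 on the minus strand for Grem1, chr16:20732877-20733126 on the plus strand for Chrd and chr14:46390670-46390919 on the minus strand for Bmp4. Capitals mark 2 motifs searched on both strands, GGCGCC, a GC-rich element that BMP Smads are known to bind, and GGGCGG, the GC box, which reads CCGCCC on the other strand.
Grem1: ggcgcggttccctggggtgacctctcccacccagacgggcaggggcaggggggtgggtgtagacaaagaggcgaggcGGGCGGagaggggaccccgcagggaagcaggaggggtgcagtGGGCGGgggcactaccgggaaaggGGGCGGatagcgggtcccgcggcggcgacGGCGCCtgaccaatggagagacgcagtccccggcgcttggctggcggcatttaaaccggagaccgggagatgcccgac
Chrd: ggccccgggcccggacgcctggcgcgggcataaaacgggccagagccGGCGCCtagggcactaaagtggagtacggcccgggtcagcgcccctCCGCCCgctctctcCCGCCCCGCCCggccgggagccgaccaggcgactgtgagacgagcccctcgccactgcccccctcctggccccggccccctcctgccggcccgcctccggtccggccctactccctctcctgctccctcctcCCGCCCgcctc
Bmp4: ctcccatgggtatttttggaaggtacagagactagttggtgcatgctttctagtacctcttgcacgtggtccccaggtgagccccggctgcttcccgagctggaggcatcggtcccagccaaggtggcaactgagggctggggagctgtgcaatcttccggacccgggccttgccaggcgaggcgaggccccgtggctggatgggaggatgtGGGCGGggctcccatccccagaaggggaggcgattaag
The GC-rich element was found once in Grem1, beginning 78 bases before the start, and once in Chrd, 203 bases before it. No match was present in the Bmp4 window. Among 32851 promoter windows of the same length, 9.59% held GGCGCC and 32.7% held GGGCGG. The GC box was found 3 times in Grem1, 4 times in Chrd and 1 time in Bmp4, and in Chrd neighbouring matches share a base. These are matches of letters, and binding was not measured.

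Cartilage after DMM held more Bmp2, Bmp7, Gdf5 and Acvr1 RNA and less Grem1 RNA than naive cartilage. A gene was called when its Benjamini-Hochberg adjusted p, over all genes tested, was 0.05 or less and its change was 1.5-fold or more. By this rule 4 members rose and 1 fell, and 5 were not called. Over all 17760 genes tested, 13.7% were called, 7.75% higher and 5.92% lower. The 2 groups of libraries did not overlap for 6 of the 10 members, compared with 22.2% of all genes tested. The median log2 fold change was 0.57 for the 10 members and -0.02 for all genes tested. In bulk tissue, a change in the number of cells that make a transcript and a change in the amount each cell makes cannot be told apart.

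**Figure D1:**
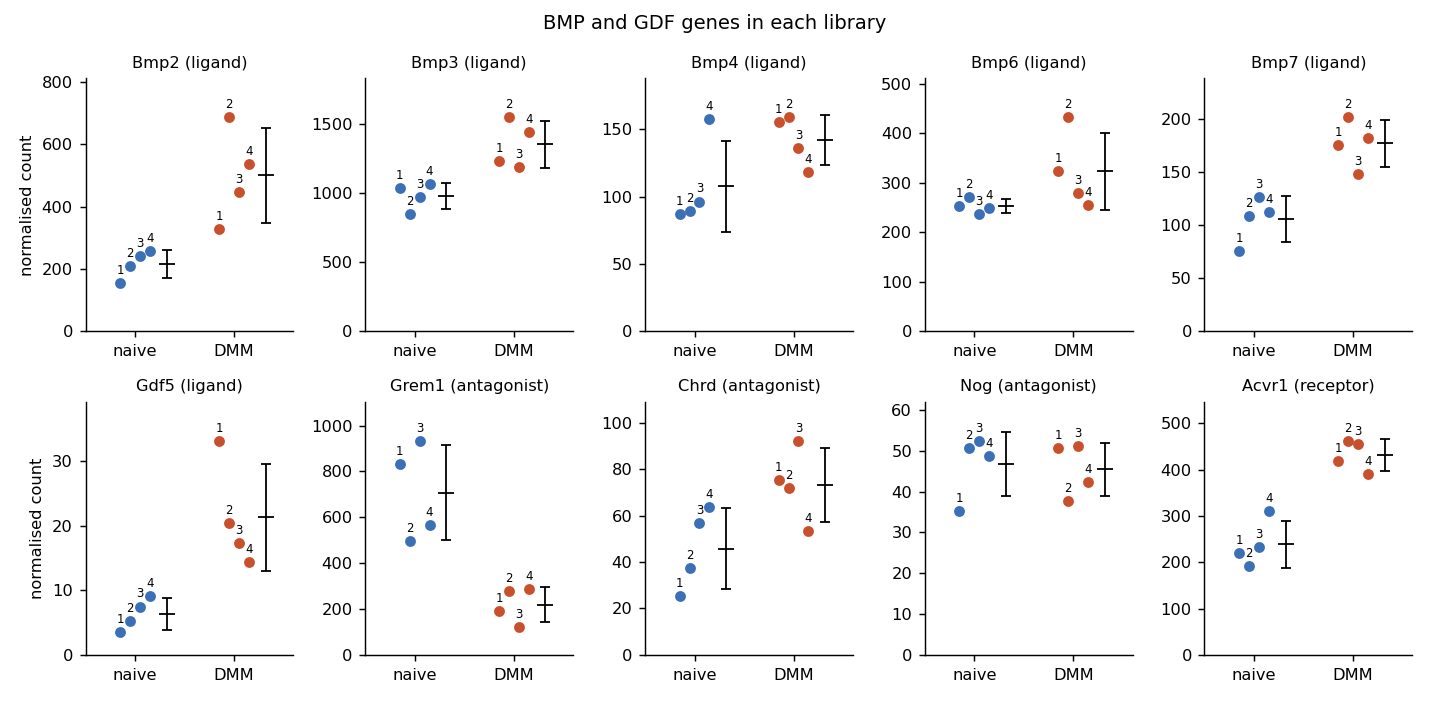
Normalised counts (vertical axes, each starting at 0) of the 10 genes in each naive (blue) and DMM (orange) library, with replicate numbers beside the points and bars for the mean and SD of each group, n = 4. The groups stand apart for Bmp2, Bmp3, Bmp7, Gdf5, Grem1 and Acvr1, Grem1 is the gene that is lower in DMM, and the libraries of both groups mix for Bmp4, Bmp6, Chrd and Nog.

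Among the ligands, Bmp2, a potent inducer of bone and of chondrocyte maturation, had the largest rise of those measured at over 100 normalised counts. Bmp2 (ENSMUSG00000027358) lies on the plus strand of chromosome 2, from 133552159 to 133562885 on GRCm38. Its normalised counts were 154, 209, 242 and 257 in the 4 naive libraries and 328, 688, 447 and 537 in the 4 DMM libraries. Every DMM library was above every naive one, and the DMM libraries were spread more widely. The mean went from 215.5 ± 45.8 to 500.1 ± 152 (SD, n = 4 per group, as for all means given here). The log2 fold change was 1.21 with an SE of 0.23 and a 95% interval of 0.76 to 1.67 (DESeq2 adjusted p = 8.51e-06), a 2.32-fold rise, and the gene was called in all 8 fits that left out 1 library.

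Bmp2 moved beside the markers of chondrocytes and osteoblasts. The 8 chondrocyte markers summed to 1916 to 3510.2 CPM in naive and 5200.0 to 10314 in DMM libraries (4 of 8 higher, none lower), and all 8 osteoblast and osteocyte markers were called higher. Ratios within each library were taken to 2 of these 16 markers, both called higher, and to none that was not called. The ratio of Bmp2 to Acan, the main cartilage proteoglycan, was 0.0293 to 0.0355 in naive and 0.0283 to 0.0415 in DMM. The ratio of Bmp2 to Sp7, a transcription factor of osteoblasts and hypertrophic chondrocytes, was 0.496 to 0.619 in naive and 0.412 to 0.932 in DMM. In both ratios the groups overlapped. Acan and Sp7 rose by log2 fold changes of 1.09 and 1.01, beside 1.21 for Bmp2, and the source of the Bmp2 RNA was not tested. Other chondrocyte markers were not called, with log2 fold changes of -0.36 for Col9a1, -0.29 for Matn3, 0.46 for Cnmd and 0.79 for Hapln1. The genes whose course over the 8 libraries came closest to that of Bmp2 were Col10a1, the collagen of hypertrophic cartilage, Acan and Kcna6, a potassium channel. Their centred log2 counts differed from those of Bmp2 by a root mean square of 0.162, 0.172 and 0.175.

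Bmp7, a ligand with a known anabolic action on articular cartilage, rose less. Bmp7 (ENSMUSG00000008999) is on the minus strand of chromosome 2, 172868012 to 172940321. Its normalised counts were 75.6, 109, 126 and 112 in naive and 176, 202, 148 and 182 in DMM libraries. The groups did not overlap, with the lowest DMM library above the highest naive one. Its log2 fold change was 0.75 with an SE of 0.20 (interval 0.36 to 1.13, DESeq2 adjusted p = 0.00178), and Bmp7 was called in all 8 fits that left out 1 library. The genes of nearest course were Cxcl16, a chemokine, Etl4 and Vash1, an angiogenesis inhibitor, at root mean square differences of 0.0979, 0.109 and 0.116.

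Gdf5, the joint-forming ligand, had the largest fold change of the members and the lowest counts. Gdf5 (ENSMUSG00000038259) is on the minus strand of chromosome 2, 155941023 to 155945367. Its normalised counts were 3.52, 5.32, 7.49 and 9.07 in naive and 33.2, 20.4, 17.3 and 14.4 in DMM libraries. All DMM values exceeded all naive values, and the highest stood in DMM replicate 1. With 119 estimated counts over the 8 libraries, the log2 fold change of 1.77 had an SE of 0.52 and an interval of 0.74 to 2.79 (DESeq2 adjusted p = 0.00622). DESeq2 returned an adjusted p in 3 of the 8 fits without 1 library, those without naive replicate 1, naive replicate 4 or DMM replicate 4, and called the gene in each, and over all 8 of these fits the log2 fold change was 1.46 to 1.99. Of the 31-base words in Gdf5, 39.7% also occur in Gm15557, an annotated gene on the opposite strand at 155940728 to 155942750 that was listed at 0 counts in every library. Since the use of strand in counting was not stated, reads of these genes cannot be told apart.

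Bmp3, an atypical family member that opposes the signal of other BMPs, was higher by less than the fold threshold. Bmp3 (ENSMUSG00000029335) is on the plus strand of chromosome 5, 98854415 to 98884396. Its normalised counts were 1035, 851, 971 and 1066 in naive and 1229, 1550.1, 1190 and 1440 in DMM libraries. The groups did not overlap. It differed by a log2 fold change of 0.46 with an SE of 0.13 and an interval of 0.21 to 0.71 (DESeq2 adjusted p = 0.00285), which is under 1.5-fold. When libraries were scaled by their total count instead, the value was 0.61 and the gene was called.

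Bmp4 and Bmp6, ligands of bone and cartilage, were not called. Bmp4 (ENSMUSG00000021835, chromosome 14, minus strand, 46383520 to 46390669) had normalised counts of 87.1, 89.1, 96.3 and 158 in naive and 155, 159, 136 and 118 in DMM libraries. Naive replicate 4 lay among the DMM libraries and the other 3 naive libraries lay below all of them. Its log2 fold change was 0.40 with an SE of 0.23 and an interval of -0.04 to 0.85 (DESeq2 adjusted p = 0.205). Without naive replicate 4 it was 0.64 (DESeq2 adjusted p = 0.00925) and the gene was called, so the absence of a call rests on that library.

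Bmp6 (ENSMUSG00000039004, chromosome 13, plus strand, 38345107 to 38500302) had normalised counts of 252, 271, 238 and 249 in naive and 324, 433, 279 and 255 in DMM libraries. The naive libraries were tightly grouped and DMM replicate 4 lay within their range. This gave a log2 fold change of 0.35 with an SE of 0.18 and an interval of 0.00 to 0.70 (DESeq2 adjusted p = 0.147), and 5.20% of its 31-base words occur in other genes. It was 0.18 without DMM replicate 2, the highest library.

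Grem1, which encodes gremlin, an antagonist of BMP2, BMP4 and BMP7, was the only member that fell. Grem1 (ENSMUSG00000074934) is on the minus strand of chromosome 2, 113746164 to 113758646. Its normalised counts were 834, 498, 934 and 567 in naive and 192, 277, 123 and 286 in DMM libraries. The lowest naive library was above the highest DMM library. The mean went from 708 ± 209 to 219.6 ± 77.2, a 3.23-fold fall, with a log2 fold change of -1.69, an SE of 0.27 and an interval of -2.22 to -1.16 (DESeq2 adjusted p = 4.63e-08). Grem1 was called in all 8 fits without 1 library, and it alone among the members passed a test against a change of 1.5-fold (DESeq2 adjusted p = 0.0148).

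Markers of marrow stroma, cells known to express Grem1, and of blood lineages were read beside it. DESeq2, edgeR and limma-voom called 0 of the 6 stromal and adipocyte markers in either direction (2 were higher and 0 lower at an unadjusted p under 0.05 in DESeq2), and their sum was 771 to 1045 CPM in naive and 829 to 1456 in DMM libraries (exact two-sided permutation test over 70 assignments, p = 0.286). Of these, Lepr, the leptin receptor, and Cxcl12, a chemokine, had log2 fold changes of 0.14 and 0.05. Of 8 neutrophil markers, 7 were called lower. Of 7 erythroid markers, 6 were called lower, and their sum was 10684 to 17928 CPM in naive and 5909 to 12510 in DMM libraries, which overlapped because of DMM replicate 3 (exact permutation p = 0.0857). Of the 8 chondrocyte markers, 4 were called higher and 0 lower. The part of any of these cell types, chondrocytes included, in the fall of Grem1 was not tested.

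Among genes with a mean of 100 or more, the nearest in course to Grem1 were Gm10172, Cytl1, a secreted protein of cartilage, and Hal, histidine ammonia-lyase, at root mean square differences of 0.452, 0.459 and 0.463. These distances were larger than those found for Bmp2, Bmp7 and Acvr1. The measure is not scaled to the spread of a gene, so it cannot rank how closely different members were followed. Cytl1 went from 6090 ± 1208 to 2639 ± 698 normalised counts, a log2 fold change of -1.21.

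Chordin and noggin were not called. Chrd (ENSMUSG00000006958, chromosome 16, plus strand, 20733127 to 20742384) had normalised counts of 25.5, 37.3, 56.7 and 63.5 in naive and 75.5, 72.0, 92.2 and 53.3 in DMM libraries. DMM replicate 4 fell among the naive libraries and the other DMM libraries were above them all. With a log2 fold change of 0.69, Chrd had an SE of 0.31 and an interval of 0.07 to 1.30 (DESeq2 adjusted p = 0.099). It was called without naive replicate 4, at 0.89 (DESeq2 adjusted p = 0.0353), and with total count scaling, at 0.83 (DESeq2 adjusted p = 0.0422).

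Nog (ENSMUSG00000048616, chromosome 11, minus strand, 89300638 to 89302332) had normalised counts of 35.2, 50.6, 52.4 and 48.8 in naive and 50.6, 37.6, 51.0 and 42.4 in DMM libraries. The groups lay on top of each other. The log2 fold change was -0.03 with an SE of 0.26 (DESeq2 adjusted p = 0.961), and its interval, -0.53 to 0.48, lay within 1.5-fold in either direction. Its sign turned with TMM factors, limma-voom and total count scaling.

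Acvr1, the type I receptor also called ALK2, rose. Acvr1 (ENSMUSG00000026836) is on the minus strand of chromosome 2, 58388644 to 58567157. Its normalised counts were 220, 192, 232 and 309.5 in naive and 419, 462, 455 and 389.9 in DMM libraries. The groups did not overlap and the DMM libraries were close together. Its log2 fold change was 0.86 with an SE of 0.16 and an interval of 0.54 to 1.17 (DESeq2 adjusted p = 5.58e-06), a 1.81-fold rise, and it was called in all 8 fits without 1 library. The genes of nearest course were Rhbdf1, an inactive rhomboid protein, Nr1d1, a nuclear receptor of the circadian clock, and Phldb2, at root mean square differences of 0.0458, 0.0740 and 0.0752.

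Acvr1 was set against the same 2 markers, which were called higher as Acvr1 was, and the source of the Acvr1 RNA was not tested. The ratio of Acvr1 to Sp7 was 0.486 to 0.726 in naive and 0.444 to 0.702 in DMM libraries, and that to Acan was 0.0269 to 0.0427 in naive and 0.0231 to 0.0361 in DMM libraries, with the groups overlapping in both.

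Levels of different genes were compared as normalised counts per kilobase of exon. In naive cartilage Grem1 had the highest mean level of the members, 170.7 ± 50.4 per kilobase, and its range overlapped that of Bmp3 at 133 ± 12.8. Below a gap came Bmp6 at 64.8 ± 3.59, Bmp2 at 60.6 ± 12.9, Acvr1 at 49.4 ± 10.5 and Bmp4 at 47.8 ± 15.0, each overlapping the next. Nog at 27.6 ± 4.63 and Bmp7 at 26.3 ± 5.34 overlapped each other, and Chrd at 7.31 ± 2.80 and Gdf5 at 2.74 ± 1.05 were lowest and apart. By this measure an antagonist and a ligand held the top of the naive order. The order depends on the length used, since 5 of the 10 members kept their naive rank with the longest transcript instead.

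In DMM cartilage the order of the 10 members was led by Bmp3, the ligand that opposes other BMPs, at 183 ± 23.2 per kilobase. Next was Bmp2 at 141 ± 42.7, and the ranges of Bmp3 and Bmp2 overlapped. Acvr1 followed at 89.4 ± 6.97, then Bmp6 at 82.8 ± 20.2 and Bmp4 at 63.2 ± 8.39. The range of Bmp2 overlapped that of Acvr1, Acvr1 that of Bmp6, and Bmp6 that of Bmp4, so these neighbours were not apart. Grem1 was sixth of the 10 at 53.0 ± 18.6, with a range that overlapped those of Bmp4 above it and Bmp7 below it, at 44.1 ± 5.55. Nog at 26.8 ± 3.85, Chrd at 11.7 ± 2.55 and Gdf5 at 9.19 ± 3.56 closed the order, and the last 2 overlapped.

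**Figure D2:**
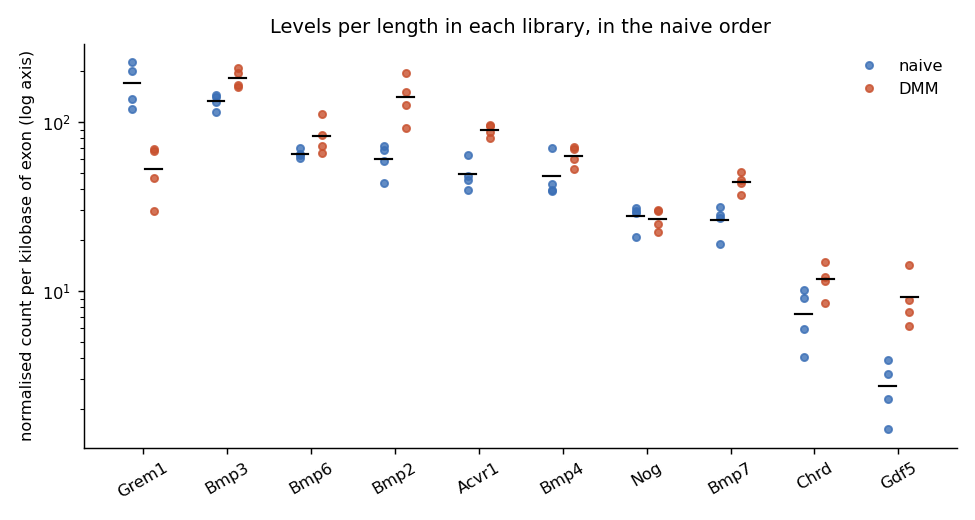
Normalised counts per kilobase of exon (log axis) of the 10 genes in naive (blue) and DMM (orange) libraries, ordered by the naive mean, with black lines for group means. Grem1 drops from the highest mean, 170.7, to 53.0, and Bmp3 and Bmp2 lead the DMM libraries at 183 and 141.

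The rest of the pathway was read from 65 further genes in 6 lists by role, of which 55 were tested. Of these, 24 were called higher and none lower, where 7.75% and 5.92% of all genes tested were called higher and lower. The same 2 shares are the background for the counts by list below. In DESeq2, 0 of the 55 were lower at an unadjusted p under 0.05, and edgeR and limma-voom also called 0 lower, with 23 and 24 higher. The median log2 fold change of the 55 was 0.60, and the groups did not overlap for 26, beside 22.2% of all genes tested. The 10 untested genes, such as Bmp10, Bmp15, Gdf2 and Mstn, had few or no counts. Some of the genes are expressed by bone and vessel cells. All 8 osteoblast and osteocyte markers and 2 of 5 endothelial markers were called higher. The part of these cells in the rises was not tested.

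Of 15 other ligands, 9 were tested and 4 were called. Gdf11 went from 108 ± 7.41 to 191 ± 17.3 normalised counts, a log2 fold change of 0.83 with an SE of 0.16 (DESeq2 adjusted p = 5.71e-06). Bmp8a, from 136 ± 25.0 to 234 ± 29.3, changed by 0.78 with an SE of 0.18, and 11.2% of its 31-base words occur in other genes, so its counts are less certain. Gdf10, also called BMP3B, went from 521 ± 152 to 861 ± 183, with groups that overlapped at DMM replicate 1. Gdf6, a relative of Gdf5, was called at 2.30 on counts of 5.81, 60.2, 14.8 and 2.71 in the DMM libraries, against 1.76 to 5.67 in naive. That call rests on DMM replicate 2. Without it the log2 fold change was 0.90 with no adjusted p, and DMM replicate 4 lay within the naive range.

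Of 15 other antagonists and modulators, 13 were tested and 4 rose, while the other 9 were not called. Nbl1, known as DAN and a relative of gremlin, went from 500.3 ± 173 to 1585 ± 536 normalised counts, a log2 fold change of 1.66 with an SE of 0.28 (DESeq2 adjusted p = 2.43e-07). Its naive libraries were at 280, 526, 496 and 701 and its DMM libraries at 2155, 1459, 1823 and 903. So Nbl1 and Grem1 moved in opposite directions, each without overlap between the groups. This holds for these 2 genes and is not a result on their family. Fstl1, a secreted follistatin-like glycoprotein with 8.45% of its words in other genes, changed by 0.99 with an SE of 0.19, and Twsg1, which acts with chordin, by 0.62 with an SE of 0.14. Twsg1 fell under 1.5-fold in 3 of the 8 fits without 1 library. Sost, the osteocyte inhibitor of Wnt signalling, changed by 1.06 with an SE of 0.40 (DESeq2 adjusted p = 0.0381) and kept its call in 4 of those 8 fits.

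Of 10 other receptors and co-receptors, 9 were tested and 4 rose. Bmpr1a, a type I receptor for BMP2 and BMP4, had normalised counts of 379.9, 385, 482 and 499 in naive and 634, 650.4, 845 and 719 in DMM libraries. Its log2 fold change was 0.71 with an SE of 0.15 (DESeq2 adjusted p = 4.9e-05), beside 0.86 for Acvr1. Bmpr2, the type II receptor, changed by 0.60 with an SE of 0.13, Eng, the endothelial co-receptor endoglin, by 0.60 with an SE of 0.15, and Rgma, a co-receptor, by 0.88 with an SE of 0.27. Bmpr2 and Eng are just past 1.5-fold, and they kept the call in 4 and 2 of the 8 fits without 1 library. Of 5 endothelial markers 2 were called higher, and the most abundant, Pecam1, had a log2 fold change of -0.03. Their sum was 193 to 265 CPM in naive and 300.3 to 348 in DMM libraries, and the part of this in the rise of Eng was not tested. Acvrl1, a type I receptor of endothelial cells, was at 349 ± 11.7 and 349.8 ± 18.6.

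All 8 Smads and Smad regulators were tested and 3 passed both thresholds. The groups did not overlap for any of the 8, beside 22.2% of all genes tested without overlap. Smad9, a receptor-activated Smad of the BMP branch, went from 72.8 ± 15.0 to 141 ± 10.6 normalised counts, a log2 fold change of 0.95 with an SE of 0.20 (DESeq2 adjusted p = 3.75e-05). Smad1 and Smad5 differed by 0.41 each, past the adjusted p and under the fold threshold. Skil and Ski, which repress Smad activity, changed by 0.60 and 0.61, and each was called in part of the fits without 1 library, 4 and 5 of 8.

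All 11 transcriptional targets were tested and 7 rose, beside 7.75% of all genes tested called higher. Id3, a direct target that blocks helix-loop-helix transcription factors, had normalised counts of 381, 434, 336 and 372 in naive and 872, 807, 699 and 691 in DMM libraries. The groups were far apart, with a log2 fold change of 1.01 and an SE of 0.13 (DESeq2 adjusted p = 6.21e-12). Id1 had 130.2, 157, 156 and 179 in naive and 218, 282, 275 and 285 in DMM libraries, a log2 fold change of 0.77 with an SE of 0.16 (DESeq2 adjusted p = 5.14e-05). Its groups were also apart. Id2 did not follow them, with 470 to 567 in naive and 382 to 661 in DMM libraries and a log2 fold change of 0.02 with an SE of 0.18. Id4, Msx1 and Msx2 were also not called, with log2 fold changes of 0.32, 0.68 and -0.69.

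Some of the targets that rose are themselves known inhibitors of the pathway. Bambi, a decoy receptor without a kinase, had 258 to 282 normalised counts in naive and 449 to 518 in DMM libraries, a log2 fold change of 0.86 with an SE of 0.11 (DESeq2 adjusted p = 8.72e-12). Smad7, an inhibitory Smad, had 336 to 412 in naive and 477 to 615 in DMM libraries, a log2 fold change of 0.63 with an SE of 0.13. The other targets called higher were Smad6, Dlx5 and Atoh8.

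Of 6 proteases that mature the ligands or cut chordin, 5 were tested and 2 rose. Pcsk5, a proprotein convertase, had normalised counts of 269, 294, 406 and 371 in naive and 759, 776, 806 and 837 in DMM libraries. It had the smallest adjusted p of the 55 pathway genes, with a log2 fold change of 1.25 and an SE of 0.15 (DESeq2 adjusted p = 1.37e-14). Bmp1, which despite its name is the metalloprotease that cleaves chordin and procollagens, went from 1033 ± 97.4 to 1751 ± 261, a log2 fold change of 0.76 with an SE of 0.13.

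**Figure D3:**
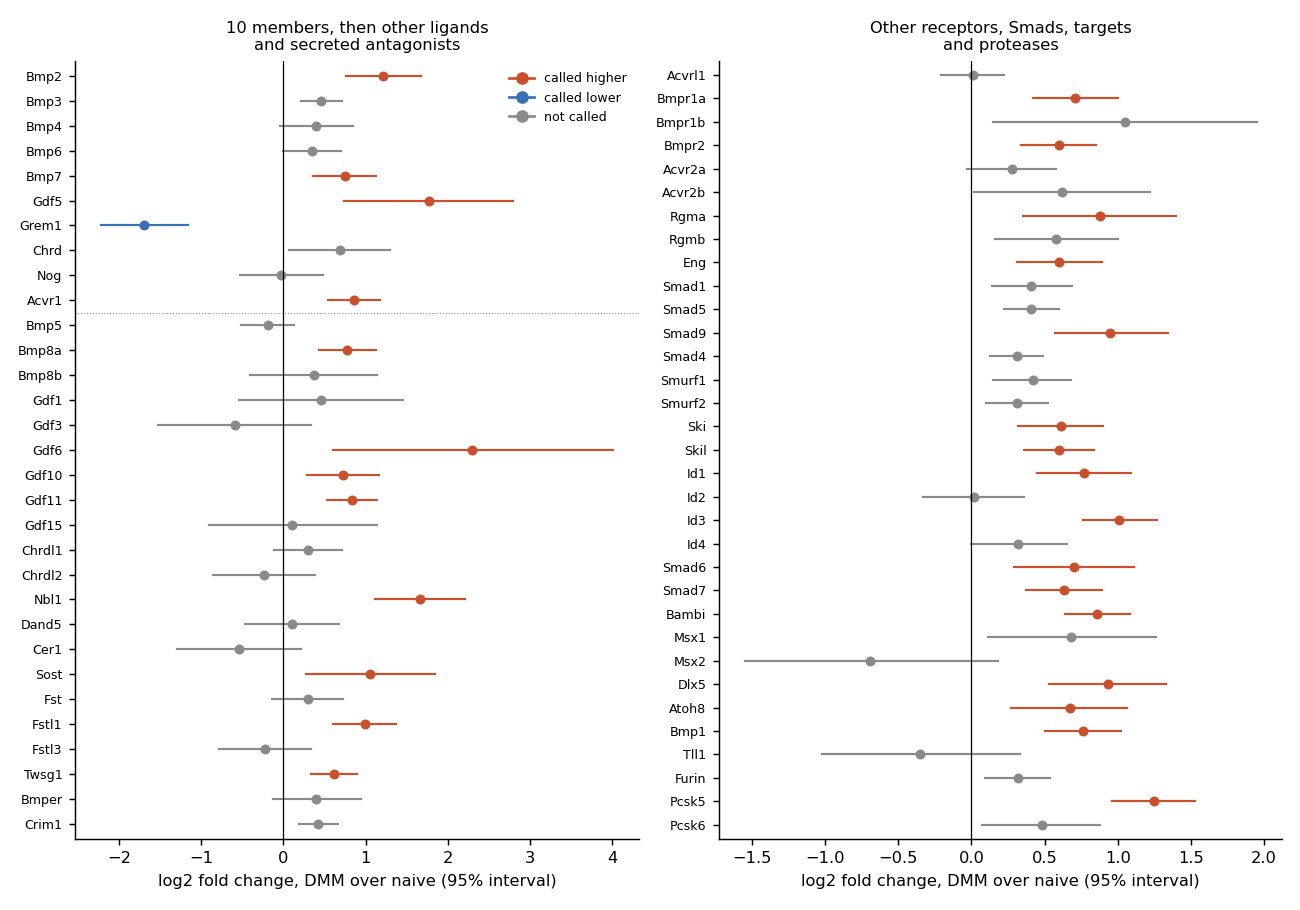
Log2 fold changes of DMM over naive with 95% intervals (horizontal axes) for the 10 members, above the dotted line, and for 54 of the 55 other pathway genes tested, coloured by whether they were called higher (orange), called lower (blue) or not called (grey). Grem1, at -1.69, is the only gene called lower, and 28 of the 64 genes drawn were called higher.

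**Figure D4:**
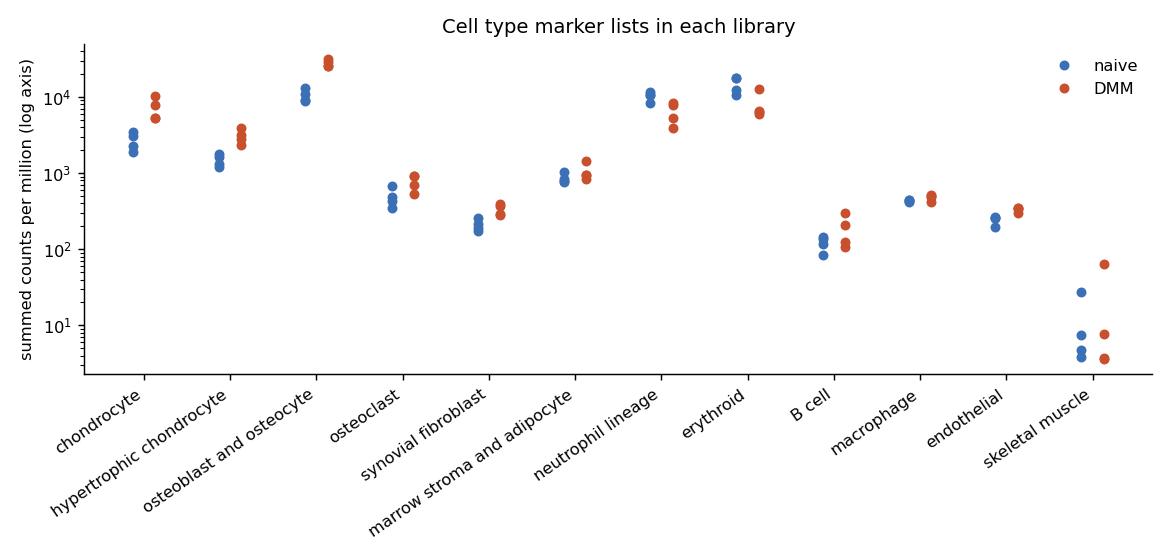
Summed CPM (log axis) of the markers of 12 cell types in each naive (blue) and DMM (orange) library. The chondrocyte, hypertrophic, osteoblast, synovial fibroblast and endothelial sums are higher in every DMM library than in any naive one, the neutrophil sums are lower in every one, and the other 6 lists overlap.

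The cell type lists that moved with these genes were compared as sums per library. The sums of the chondrocyte, hypertrophic chondrocyte, osteoblast and osteocyte, synovial fibroblast, endothelial and neutrophil lists did not overlap between the groups, each with an exact two-sided permutation p = 0.0286, the smallest that 4 against 4 libraries can give, and 0.0571 after adjustment over the 12 lists. The other lists had exact p values of 0.0571 for osteoclast, 0.0857 for erythroid, 0.114 for macrophage, 0.257 for B cell, 0.286 for marrow stroma and 0.800 for skeletal muscle markers. No marker was at 0 in all 8 libraries. The synovial list held 172 to 256 CPM in naive and 280 to 387 in DMM libraries (4 of 7 markers higher), and the hypertrophic list 1201 to 1779.7 and 2334 to 3907 (4 of 4 higher). Spp1 weighed most in the hypertrophic sum, with a naive mean of 14315.4 normalised counts. Col10a1 had 5778.6, Mmp13 1907.2 and Ihh 47.04. Whether the RNA of these markers came from cartilage or from the bone in the caps was not tested. Of the most abundant marker of each list, Col2a1, Spp1, Col1a1 and Pdgfra were called higher at log2 fold changes of 1.41, 0.77, 1.23 and 0.62, and S100a9 and Hba-a2 were called lower at -0.84 and -1.11. Acp5, Cxcl12, Cd79a, Csf1r and Pecam1 were not called, at 0.51, 0.05, 0.45, 0.20 and -0.03 (DESeq2), the last of which turned sign with TMM factors and total count scaling, and Myh4 had no adjusted p. Counts of several of these are less certain, since 92.6% of the 31-base words of Hba-a2, 30.4% of those of Myh4, 14.9% of Csf1r, 14.3% of Spp1 and 12.2% of Cd79a occur in other genes. The part of these shifts in the BMP genes was not tested.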

How the data were processed

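The deposited table holds expected counts, estimated counts per gene that the authors made per their methods with Trimmomatic for read trimming, kallisto for pseudo-alignment and tximport to sum transcripts per gene. Of its values, 38.97% are not whole, and they were rounded before testing. The methods name mouse build GRCm38 and the submitters' processing notes GRCh38, a human build, although the identifiers are of mouse. Labels and methods name different library kits, and use of strand is not given in the sources used here. Symbols and coordinates come from GENCODE vM21 on GRCm38, matched by identifier for 48909 of 50462 genes. Promoter sequences come from RefSeq (GRCm38.p6).

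Differential expression was tested with DESeq2 1.42.0 in R 4.3.3 on all 8 libraries (Wald test, median-of-ratios factors, default filters, no covariate), the test the study names. The p-values set the difference between the groups against the spread between mice, estimated from 4 mice per group. Calls needed an adjusted p up to 0.05 and at least a 1.5-fold change. Alternatives were edgeR 4.0.16 (quasi-likelihood), limma 3.58.1 (voom), other scalings, filters and call rules, a replicate block, and leaving out each library. Tests were first run on simulated data. Sums of markers were compared by an exact permutation test. The share of 31-base words that a gene has in common with other genes was computed for the members, pathway genes and markers, and is given where it exceeded 5% for a member or called pathway gene and 10% for the most abundant marker of a list. Nearness in course was the root mean square difference of centred log2(normalised count + 1) over the 8 libraries, among genes with a mean of 100 or more. Named genes were every member, up to 4 called genes of smallest adjusted p per pathway list with Id1, Id2 and Id3, the 3 nearest genes per called member with a mean of 100 or more, and the most abundant marker of each list. One tested pathway gene is counted in its list, left out of the plot of fold changes and not reported here. Other names were added after their values were seen. The members and lists were chosen with earlier results of these data known. The libraries held between 12479443 and 16548002 estimated counts each.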

Additional observations from a re-analysis of the deposited data

Results flagged for a closer look

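In 14 of 138 groups of 4 libraries, 1 library stood apart from the other 3 by Dixon's criterion at the 95% level, where chance gives about 6.9, or 1 in 20. Among the BMP genes this was Bmp4, whose naive replicate 4 had 157.6 normalised counts against 87.06 to 96.32 in the other naive libraries. In the rest of the pathway, Eng had 665.2 in naive replicate 2 (others 572.6 to 579.0) and 671.5 in DMM replicate 4 (others 960.7 to 998.5), Smad9 had 125.1 in DMM replicate 3 (others 145.1 to 147.6), Id1 had 218.1 in DMM replicate 1 (others 275.0 to 285.2) and Smad7 had 412.0 in naive replicate 3 (others 335.9 to 336.8). Of the genes of similar course, Cytl1 had 3678.6 in DMM replicate 2 (others 2221.1 to 2408.3) and Nr1d1 had 850.2 in DMM replicate 4 (others 1035.8 to 1057.0).

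Among the cell type markers, Hba-a2, an α-globin, had 59692.7 normalised counts in DMM replicate 3 (others 26769.4 to 32043.2), and the erythroid list summed to 12509.5 CPM in the same library (others 5908.7 to 6443.2). Myh4, a myosin of fast muscle, had 539.9 in DMM replicate 1 (others 4.513 to 56.97), where the skeletal muscle list summed to 64.4 CPM (others 3.592 to 7.812). That list was at 27.1 in naive replicate 3 (others 3.84 to 7.524). The endothelial list was at 193.3 in naive replicate 2 (others 258.4 to 264.8).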

How the results depend on the processing

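The 4 rises and the fall among the members kept their direction in each alternative that gave a value, and Bmp2, Bmp7, Grem1 and Acvr1 were called in each, except that against a null of 1.5-fold 1 member, Grem1, was called (0 higher), with 2 other pathway genes (2 higher) and 94 of all genes (80 higher, 14 lower). Without a fold threshold, 4010 genes were called (1989 lower). Scaling by total count shifted the median over genes averaging 10 or more counts from -0.01 to 0.14 (log2) and the split of calls from 1377 higher and 1052 lower to 2030 and 489, and it called 6 members higher and 1 lower. Leaving out 1 library gave 1858 to 2842 genes (988 to 1649 higher, 769 to 1247 lower), 4 to 7 members (3 to 6 higher, 1 to 1 lower) and 17 to 28 other pathway genes (17 to 28 higher, 0 to 0 lower). The most members, 7, and pathway genes, 28, were called without naive replicate 4, and the fewest pathway genes, 17, without naive replicate 1. The 4 members in 5 of the 8 fits reflect Gdf5, which then had no adjusted p. By longest transcript instead of exon union, 5 of 10 members kept their naive rank.

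Signs turned for Nog (0.01 with limma-voom, 0.00046 with TMM factors, 0.13 with total count scaling, -0.15 to 0.05 without 1 library), Id2 (-0.01 with the replicate block, -0.10 to 0.15 without 1 library), Cxcl12 (-0.15 to 0.14 without 1 library), Pecam1 (0.0026 with TMM factors, 0.12 with total count scaling, -0.11 to 0.06 without 1 library) and the macrophage sum (-0.01 on normalised counts). On normalised counts the synovial sum had a log2 ratio of 0.52 and an exact p of 0.0571. Without the low-count filter, Sost (DESeq2 adjusted p = 0.0738) and Gdf6 (0.0744) were not called. The causes were not tested. The exact test was not run without 1 library, since 4 against 3 cannot go below 0.0571.

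The titles number the libraries 1 to 4 in both groups. Deviations of same-numbered libraries correlated at 0.049, 0.088, -0.174 and 0.126, and not every library was closest to its own number, so the numbers were not taken as pairs. With the replicate number as a block, DESeq2 called 2081 genes (1132 higher, 949 lower), 4 members (3 higher, 1 lower) and 21 other pathway genes (21 higher). Gdf5 had no adjusted p in that fit. Eng, at 0.58, fell under 1.5-fold, and Hba-a2, at -1.14, was not called.

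Low counts limit Gdf5, Chrd and Nog, whose 8 libraries held 119, 495 and 375 estimated counts. Strand and shared sequence limit Gdf5 and Bmp8a.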
